A study of Mus musculus with 12 samples.

Results

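Suppressors of cytokine signalling (SOCS) and the receptor parts, kinase and transcription factor of the interleukin-6 (IL-6) cytokine family were followed across 12 RNA-sequencing libraries of mouse testis. The set holds 9 of the 20718 genes in the deposited table, taken by symbol: Socs1, Socs2, Socs3, Cish, Stat3, Jak2, Il6st, Lifr and Osmr. All 9 passed the filter on low counts, as did 16320 genes in all. The genes were selected on results from these same libraries, in which Socs3 stood higher in the group 3NC than elsewhere. Every value that involves a 3NC library is therefore a description here and supports nothing.

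The labels describe testes of F0 mice of a strain written as IRC mouse. A virus was used to overexpress lncRNA8276 (8276OV) or to inhibit it (8276KD), and 5NC and 3NC are treated here as the control groups of 8276OV and 8276KD, an assignment inferred from the order of the series' design text. Each group has 3 libraries, made from total RNA. The age of the animals, the virus and its promoter, the cells it reached, and whether the replicates are separate animals are stated neither by the labels nor by the design text, so p-values measure only the spread between these libraries. The level of lncRNA8276 itself was not analysed here.

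Cytokines of the IL-6 family act through receptor chains that pair with the shared chain gp130, made from Il6st. The receptors for leukaemia inhibitory factor (Lifr) and oncostatin M (Osmr) are such partner chains. Pairing activates kinases of the JAK family, which phosphorylate STAT3. Phosphorylated STAT3 enters the nucleus and switches on target genes, Socs3 among them. The SOCS3 protein then binds gp130 and JAK and damps the signal, so Socs3 messenger RNA is widely used as a readout of recent cytokine input. SOCS1 restrains interferon signalling most strongly, while SOCS2 and CISH act mainly on growth hormone and STAT5 signalling. In testis, leukaemia inhibitory factor is known as a factor for spermatogonial stem cells and somatic cells.

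Because Socs3 is the member that differed most, the DNA before one annotated start site is shown beside that of its close relative Socs1. Both are on the minus strand of GRCm38.p6 (the assembly mm10 derives from) and come from the RefSeq promoter windows, which were found for 8 of the 9 genes. The Socs3 stretch is chr11:117969452-117969616, bases −250 to −86 before the RefSeq start site, and the Socs1 stretch is chr16:10785537-10785786, bases −250 to −1. Neither overlaps an exon of GENCODE M21; the Socs3 stretch ends at −86 because such an exon begins at the next base. The Socs3 gene as RefSeq spans it (coordinates given with its levels) extends upstream past this start site, so the stretch lies inside that span. Capitals mark matches to the STAT palindrome TTCNNNGAA and to the Sp1 motif GGGCGG.
Socs3: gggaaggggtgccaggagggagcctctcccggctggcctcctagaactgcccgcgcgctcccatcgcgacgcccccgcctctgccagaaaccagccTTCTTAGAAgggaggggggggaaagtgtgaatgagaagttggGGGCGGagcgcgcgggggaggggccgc
Socs1: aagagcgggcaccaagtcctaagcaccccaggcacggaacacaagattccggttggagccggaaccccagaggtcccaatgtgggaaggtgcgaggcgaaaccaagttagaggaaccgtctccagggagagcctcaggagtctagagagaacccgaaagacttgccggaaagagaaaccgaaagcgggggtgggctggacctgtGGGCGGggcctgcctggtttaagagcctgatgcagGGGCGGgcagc

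The Socs3 stretch carried 1 STAT palindrome, at −154 to −146 from the start site (chromosome 11, 117969512 to 117969520). Of the 8 genes with a window, Socs3 was the 1 that held TTCNNNGAA within 250 bases before the start site. That motif occurred in 7.02% of 32851 such windows of all genes. The Sp1 motif, searched on both strands, was in a window of all 8 genes and in 32.7% of all windows. The AP-1 motif TGANTCA (6.75% of windows) and the cyclic AMP element TGACGTCA (1.55%) matched in 0 of the 8. Each of these motifs other than GGGCGG is its own reverse complement. A match is a match of letters only; nothing was measured at these sites.

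Levels between genes are compared per transcript length, as FPKM (fragments per kilobase of transcript, scaled to library size), averaged over the 12 libraries. Stat3 was the highest of the 9, at 8.91 ± 1.68 FPKM (SD, n = 12), and its lowest library (6.86) lay above the highest library of each of the other members. Il6st (3.80 ± 0.598), Lifr (3.79 ± 0.841), Socs2 (3.01 ± 0.571), Socs1 (2.95 ± 0.52) and Jak2 (2.69 ± 0.459) followed, with library ranges that overlap between neighbours. Socs3 (1.58 ± 1.70), Osmr (1.12 ± 0.351) and Cish (0.682 ± 0.148) were lowest, again with overlapping ranges. Socs3 had the widest range of the set, from 0.38 to 5.6 FPKM.

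**Figure D1:**
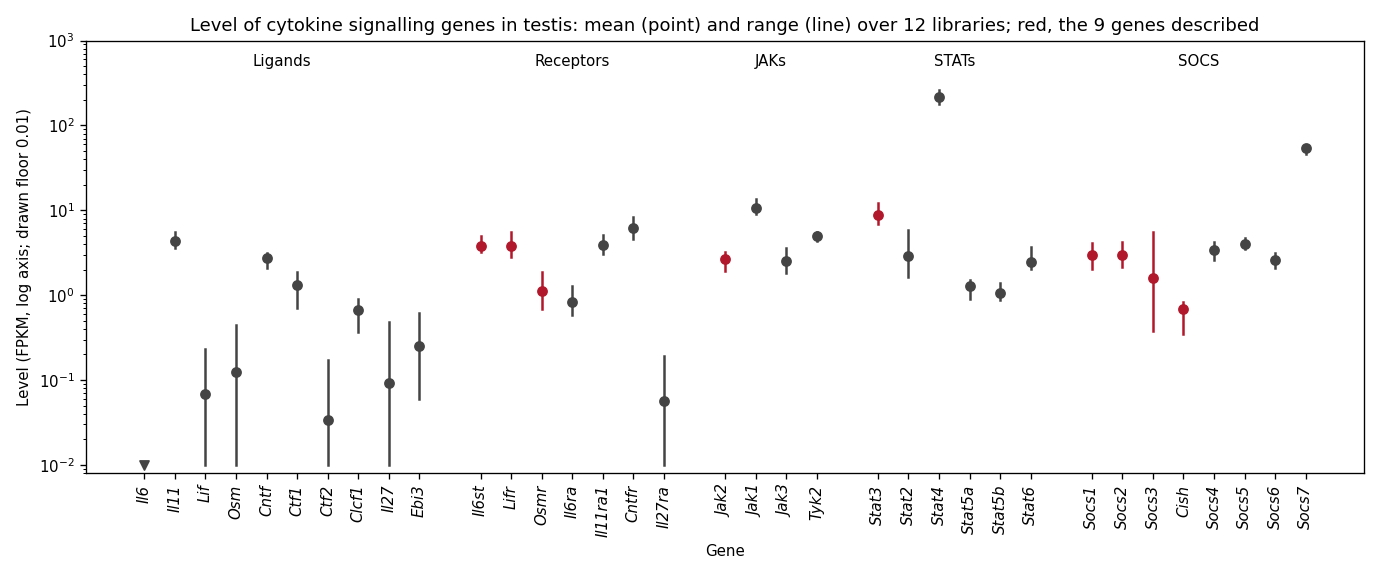
Mean level (points) and range over 12 libraries (lines) of ligands, receptors, JAK kinases, STAT factors and SOCS genes, in FPKM on a log axis whose drawn floor is 0.01; the 9 genes described are red. Il6 had no read, Stat4 and Socs7 stand highest, and Socs3 spans the widest range among the red genes.

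Several ligands that act through these receptors had few or no reads. Il6 had 0 reads in all 12 libraries, against a floor of 3 reads per library. Of 10 ligand genes examined 4 passed the filter: Il11, Cntf, Ctf1 and Clcf1. Il11 (4.33 FPKM) and Cntf (2.71) were the highest. Lif and Osm, the ligands for which LIFR and OSMR are named, had 53 and 42 reads over the 12 libraries. Osm, named after its values were seen, had 8, 13 and 6 reads in 3NC, 1, 0 and 1 in 5NC, 4, 2 and 0 in 8276KD, and 4, 2 and 1 in 8276OV. Its 3 libraries of 3NC were thus the 3 highest, at counts too low to pass the filter. Lif went the other way, with 2 reads in 3NC, 26 in 5NC, 12 in 8276KD and 13 in 8276OV. Of the 4 tested ligands, 0 were called in any of the 6 pairwise comparisons by edgeR, DESeq2 or limma with voom, and 0 had an unadjusted p under 0.05 with edgeR.

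Socs3 (gene 12702, chromosome 11, 117966079 to 117970336) had 7.46, 14.5 and 10.7 CPM (read counts scaled to a common library size) in 3NC replicates 1, 2 and 3. In 5NC it had 2.20, 1.42 and 1.28 CPM, in 8276KD 1.84, 1.42 and 2.07, and in 8276OV 3.80, 1.63 and 0.993. The 3 libraries of 3NC lay above all 9 others, the lowest of them 1.96 times the highest of the rest, 8276OV replicate 1. That separation was found for 1 of the 9 members, Socs3, and for 0.797% of the tested genes. Group means were 10.9 ± 3.52 CPM in 3NC, 2.14 ± 1.47 in 8276OV, 1.78 ± 0.331 in 8276KD and 1.63 ± 0.492 in 5NC (SD, n = 3). The last 3 groups overlap, and their order is within the spread.

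**Figure D2:**
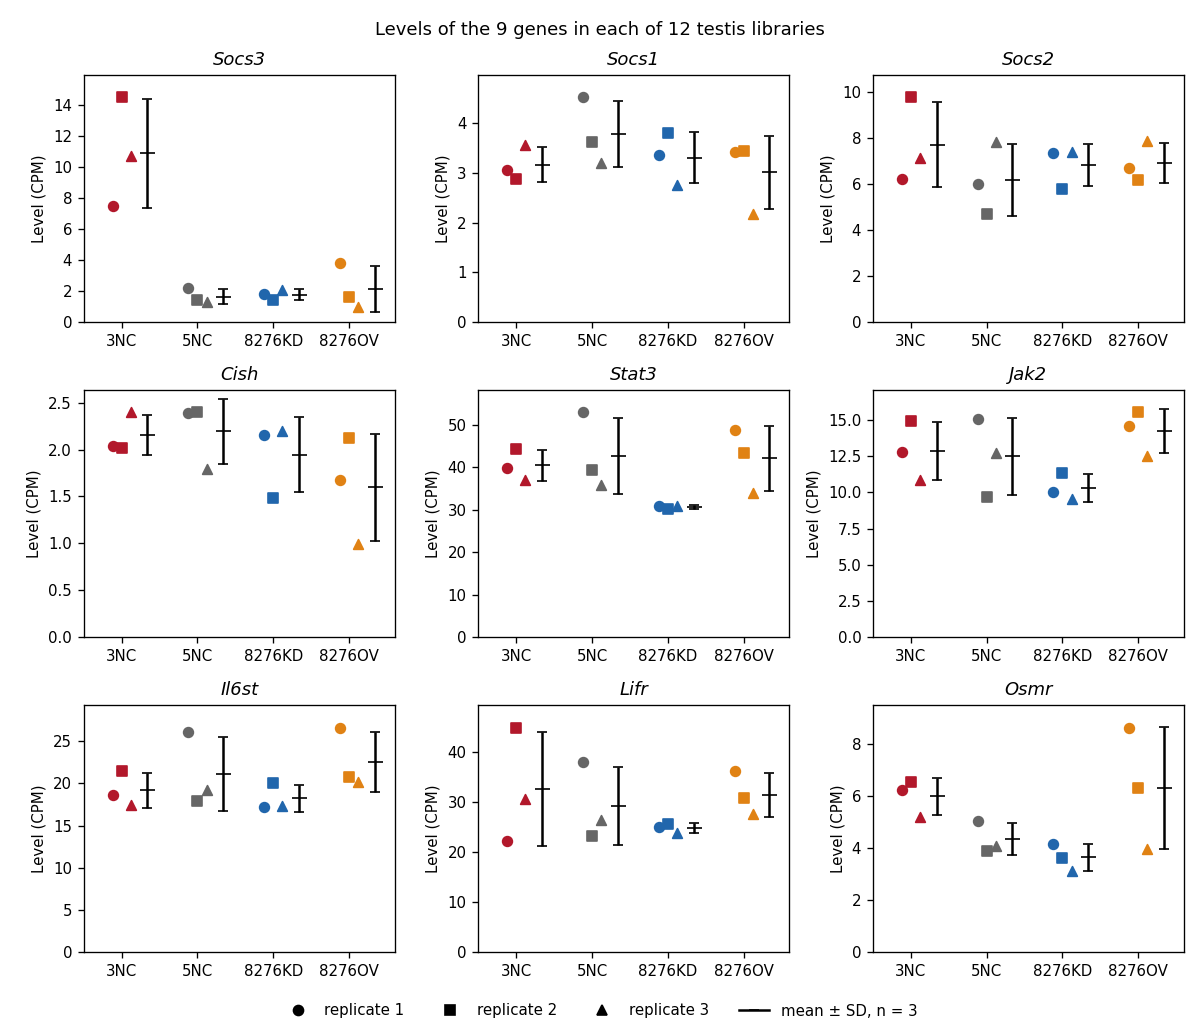
Level of each of the 9 genes in CPM (vertical axes start at 0) by group; each point is a library, its shape the replicate number, and bars give the mean ± SD of 3 libraries. Socs3 in 3NC lies between 7.46 and 14.5 CPM and at or below 3.80 in the 9 other libraries, while the groups of Socs1, Socs2 and Cish overlap.

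In 8276KD minus 3NC, Socs3 had a log2 fold change of −2.60 ± 0.38 (± SE), 6.07-fold lower. It was the 1 member of 9 past an adjusted p of 0.05 in edgeR's quasi-likelihood test, where 0.178% of all genes were called. It was likewise the 1 member called in 5NC minus 3NC (−2.76 ± 0.39; background 0.362%) and in 8276OV minus 3NC (−2.36 ± 0.38; background 0.319%). These 3 comparisons share the 3NC libraries and were known when the genes were chosen, so nothing is read from the counts. The call for 8276OV minus 3NC was lost in a fit of only those 2 groups (−2.36 ± 0.43, adjusted p = 0.177). The calls also depended on single libraries. In 8276KD minus 3NC it was lost without 3NC replicate 2 (−2.35 ± 0.40) and without 8276KD replicate 1 (−2.63 ± 0.47), 2 (−2.46 ± 0.46) or 3 (−2.73 ± 0.47). In 5NC minus 3NC it was lost without 5NC replicate 3 (−2.63 ± 0.46), and in 8276OV minus 3NC without 3NC replicate 3 (−2.36 ± 0.43) or 8276OV replicate 2 (−2.20 ± 0.44). The fitted value stayed at or below −2.02 in each of these 3 comparisons when any single library was left out.

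Comparisons without 3NC leave out the libraries in which Socs3 stood high. The libraries they use were the low side of that contrast, so for Socs3 these comparisons are descriptions too. Socs3 was not called in 8276OV minus 5NC (0.41 ± 0.42, edgeR adjusted p = 0.717), in 8276KD minus 5NC (0.16 ± 0.43, adjusted p = 0.999) or in 8276OV minus 8276KD (0.25 ± 0.42, adjusted p = 0.858). The value for 8276OV minus 5NC rested on 8276OV replicate 1 and was −0.29 ± 0.36 without it. For 8276OV minus 8276KD it was −0.45 ± 0.36 without that library.

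The other SOCS genes did not share the pattern by level. Socs1 (gene 12703, chromosome 16, 10783808 to 10785536) ranged from 2.17 CPM in 8276OV replicate 3 to 4.52 in 5NC replicate 1, with a median of 3.41 over the 9 libraries outside 3NC and 2.87 to 3.56 in 3NC. Socs2 (gene 216233, chromosome 10, 95383903 to 95417321) ranged from 4.73 CPM in 5NC replicate 2 to 9.78 in 3NC replicate 2. Cish (gene 12700, chromosome 9, 107296659 to 107302784) ranged from 0.993 to 2.39 CPM, and counting error is large at its 16 to 37 reads a library. The largest fitted differences of these 3 genes were −0.44 ± 0.28 for Cish in 8276OV minus 3NC and −0.43 ± 0.28 in 8276OV minus 5NC (adjusted p = 0.562). Of the SOCS genes outside the set, Socs4, Socs5, Socs6 and Socs7 all passed the filter, and 0 of the 4 were called in any comparison by edgeR, DESeq2 or limma with voom; 0 had an unadjusted p under 0.05 with edgeR. Socs7 was the highest SOCS gene, at 53.5 FPKM, followed by Socs5 at 3.99.

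Of the 9 genes, the receptor chains, the kinase and the factor each had their lowest group mean in 8276KD. The share of all genes with their lowest group mean in 8276KD was not counted. Among the other tested receptor and kinase genes of the family the order was mixed. Cntfr (14.7 CPM) and Tyk2 (24.95) had their highest group mean in 8276KD, while Il6ra (2.47) and Jak1 (48.9) had their lowest there. Il11ra1 and Jak3 had their lowest in 8276OV. Stat3 (gene 20848, chromosome 11, 100886806 to 100939594) had 30.9, 30.1 and 31.0 CPM in the 3 libraries of 8276KD and 48.9, 43.4 and 33.9 in 8276OV. In 5NC it had 52.9, 39.3 and 35.8 CPM, and in 3NC 39.8, 44.4 and 37.0. All 3 libraries of 8276KD were thus below all 9 others, which held for 1 of the 9 members and for 0.846% of all genes.

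Osmr (gene 18414, chromosome 15, 6813568 to 6874968) had 4.18, 3.61 and 3.14 CPM in 8276KD and 8.62, 6.32 and 3.97 in 8276OV. It had 5.04, 3.88 and 4.10 CPM in 5NC and 6.24, 6.54 and 5.18 in 3NC. For this receptor 8276KD and 8276OV overlap through 8276OV replicate 3, while 3NC lies above both 8276KD and 5NC.

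Jak2 (gene 16452, chromosome 19, 29251803 to 29313095), the kinase, had 10, 11.4 and 9.55 CPM in 8276KD and 14.6, 15.5 and 12.5 in 8276OV, with no overlap. Il6st (gene 16195, chromosome 13, 112464070 to 112506860) had 17.2, 20.1 and 17.3 CPM in 8276KD and 26.6, 20.8 and 20.2 in 8276OV, a gap of under 1 CPM between the groups. Lifr (gene 16880, chromosome 15, 7090610 to 7197489) had 25.1, 25.7 and 23.8 CPM in 8276KD and 36.2, 30.8 and 27.5 in 8276OV. The highest Lifr level, 44.9 CPM, was in 3NC replicate 2, against 22.3 and 30.6 in the other 3NC libraries.

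None of the 5 passed the test across all genes in 8276OV minus 8276KD, where edgeR called 0 of 9 members and 0.0551% of all genes. The log2 fold changes were 0.44 ± 0.14 for Stat3 (adjusted p = 0.376), 0.46 ± 0.16 for Jak2 (0.485), 0.30 ± 0.14 for Il6st (0.639), 0.33 ± 0.21 for Lifr (0.688) and 0.78 ± 0.23 for Osmr (0.354). At an unadjusted p under 0.05 there were 3 of 9 members (Stat3, Jak2 and Osmr) and 1279 of the 16320 genes, and DESeq2 and limma with voom called 0 members as well. Libraries of the 2 groups did not overlap for 4 of 9 members (Stat3, Jak2, Il6st and Lifr) and for 19.4% of all genes. The median over the 9 members was 0.30, beside 0.01 over all genes. Without 8276OV replicate 3, Osmr passed the threshold (1.02 ± 0.20, adjusted p = 0.0371). In bulk tissue, fewer cells of a type and less RNA per cell cannot be told apart.

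**Figure D3:**
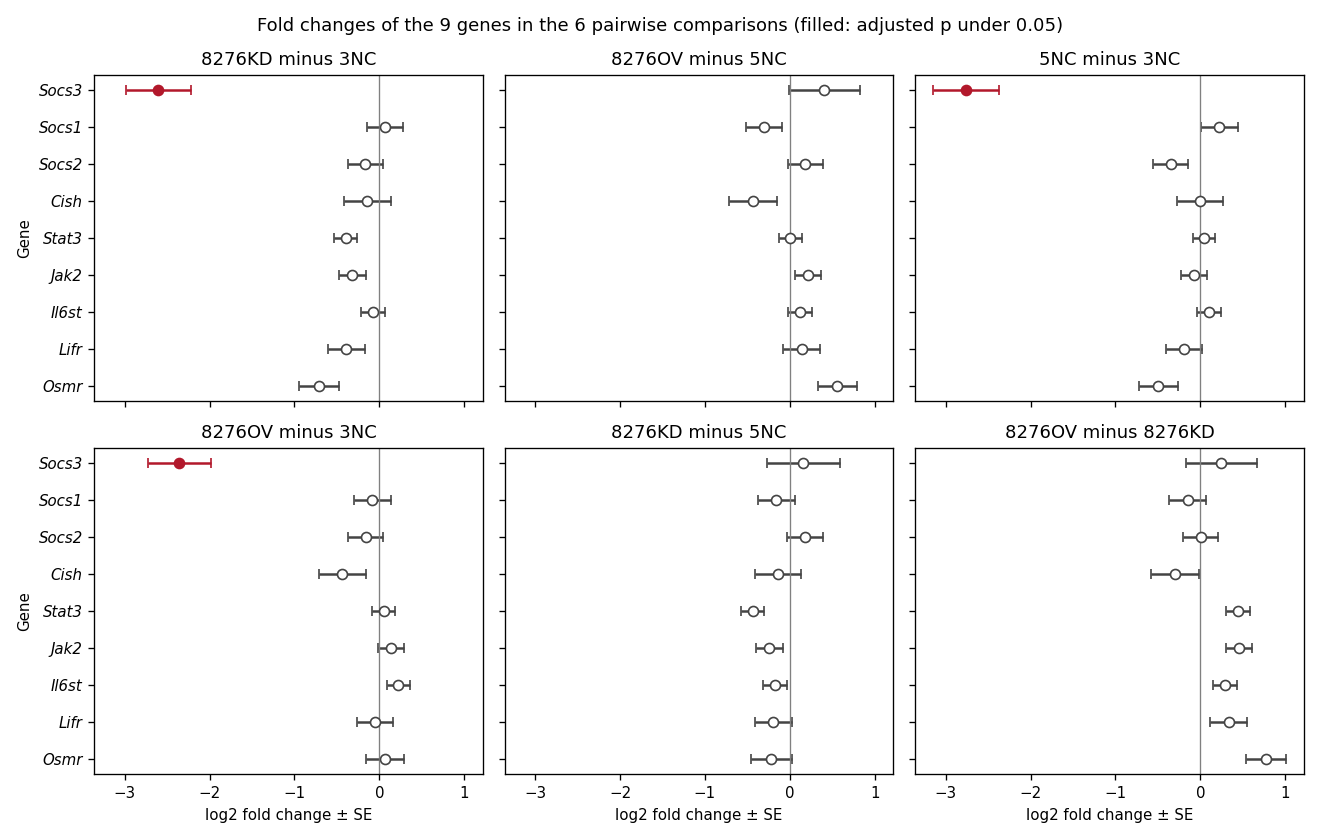
Log2 fold change ± SE of the 9 genes in the 6 pairwise comparisons (second group subtracted from first); filled red points passed an adjusted p of 0.05. Socs3 lies between −2.76 and −2.36 in the 3 comparisons with 3NC, and Stat3, Jak2, Il6st, Lifr and Osmr lie right of 0 in 8276OV minus 8276KD without passing.

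In 8276OV minus 5NC, edgeR called 0 of 9 members and 0% of all genes, and DESeq2 and limma with voom called 0 members. At an unadjusted p under 0.05 with edgeR there were 1697 of the 16320 genes and 1 of the 9 members. That member was Osmr (0.56 ± 0.23, adjusted p = 0.444), and Stat3 had 0.01 ± 0.14. No member was free of overlap between 8276OV and 5NC, while 15.2% of all genes were. With the replicate number as a block the count of members called was again 0, both in the fit of all groups (0 of all genes called) and in a fit of these 2 groups alone, chosen after seeing the data, which called 215 genes. DESeq2 called 44 genes there.

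In 8276KD minus 5NC edgeR called 0 of 9 members (background 0.049%). At an unadjusted p under 0.05 there were 825 of the 16320 genes and 1 member, Stat3 (−0.44 ± 0.14, adjusted p = 0.869). It was also the 1 member without overlap, against 14% of all genes. DESeq2 and limma with voom called 0 members. In 8276KD minus 3NC, given as a description, 8 of 9 members were lower by sign, as were 50.5% of all genes, with a median of −0.32 beside 0.00 over all genes. Stat3 had −0.39 ± 0.14, Osmr −0.71 ± 0.24, Lifr −0.39 ± 0.21, Jak2 −0.32 ± 0.16 and Il6st −0.07 ± 0.14. Socs3, Stat3 and Osmr did not overlap there (3 of 9, background 16.4%). In 5NC minus 3NC, 2 of 9 did not overlap (Socs3 and Osmr; background 16.7%), and in 8276OV minus 3NC 1 of 9, Socs3 (background 7.6%).

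Within groups, Stat3, Jak2, Il6st, Lifr and Osmr varied together from library to library. After the group mean was taken from each log2 CPM value, Stat3 had a Pearson coefficient of 0.8 with Osmr, 0.78 with Il6st, 0.62 with Lifr and 0.57 with Jak2 over the 12 libraries. Jak2 had 0.73 with Il6st, and Il6st 0.72 with Lifr. The lowest values among these genes were 0.44 for Lifr with Osmr and 0.54 for Jak2 with Osmr. Socs3 had 0.81 with Stat3, 0.75 with Osmr, 0.7 with Lifr, 0.66 with Il6st and 0.31 with Jak2 by the same measure. Socs2 had −0.22 with Stat3 and −0.63 with Socs1. Socs1 had 0.6 with Stat3, 0.64 with Osmr, 0.43 with Il6st, 0.31 with Jak2 and 0.27 with Lifr. Cish had 0.54, 0.46, −0.07, −0.04 and 0.09 in the same order. These are descriptions, since the points share the make-up and depth of each library and no such coefficients of other genes were set beside them. For Stat3, Il6st, Lifr and Osmr, replicate 1 was the highest library of its group in both 5NC and 8276OV.

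Levels of cell type markers were set beside these genes. The summed level of 10 macrophage and leukocyte markers, all with a read in every library, was 99.3 to 116 CPM in 8276KD and 134 to 249 in 8276OV, and 8276OV replicate 1 was the highest library; replicate 1 was also the highest of 5NC. It was 98.5 to 140 CPM in 3NC and 110 to 172 in 5NC. Of these markers 10 of 10 were higher in 8276OV than in 8276KD (median 0.86), as were 51.5% of all genes, with 0 called. The part of such cells in the differences of Stat3, Jak2, Il6st, Lifr and Osmr was not tested. Leydig markers were lower in 8276OV than in 8276KD by sign in 6 of 6 (median −0.34) and peritubular markers in 5 of 5 (median −0.33). By sign 48.5% of all genes were lower there, and 0 markers of either list were called. In 8276OV minus 5NC all 5 peritubular markers were lower by sign (median −0.52), as were 50.3% of all genes. Each had an edgeR unadjusted p under 0.05, as did 1697 of the 16320 genes, and 0 of the 5 were called. Endothelial markers (6) summed to 20.9 to 22.6 CPM in 3NC and 24.3 to 34.3 in the other groups. Of the labelled tissue, 8 germ cell markers, including protamines, summed to 12800 to 16850 CPM, and these, 7 Sertoli and 6 Leydig markers all had reads in every library. Epididymis and fat markers (5 found) reached 130 and 134 CPM in 5NC replicates 2 and 3, against 13 to 26.7 elsewhere. The largest part was the epididymal gene Crisp1, with a mean of 64.2 CPM in 5NC and 2.45 to 3.24 in the other groups. Of the fat markers, Adipoq had 11.4 CPM in 5NC and 11.3 to 12.7 in the others. Plin1 had 2.34 CPM in 5NC and 0.823 to 1.36 in the others. The first principal component (19.1% of the variance) set 3NC replicate 2 (29) with 8276OV replicates 1 (30.2) and 3 (30.3), apart from 3NC replicates 1 and 3, and the germ cell sum of 3NC replicate 2 was the lowest of all 12. Without it the other 2 libraries of 3NC still had 7.46 and 10.7 CPM of Socs3.

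Libraries held 15448442 to 16355720 estimated reads, so 1 CPM is about 15 to 16 reads. Socs3 had 117 to 237 reads a library in 3NC and 16 to 59 in the others.

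Few other genes of the pathway passed a test. The counts below, called by a tool or at an unadjusted p under 0.05 with edgeR, pool the 6 comparisons. In single comparisons 825 to 1972 of the 16320 genes had such an unadjusted p. The share of all genes with one in any comparison was not counted. Of the kinases Jak1, Jak3 and Tyk2, 0 were called by any of the 3 tools, and 1, Tyk2, had an unadjusted p under 0.05 with edgeR. Its log2 fold change was −0.23 ± 0.11 in 8276OV minus 8276KD (edgeR adjusted p = 0.625) and 0.24 ± 0.11 in 8276KD minus 3NC. Jak1 (10.5 FPKM) and Tyk2 (4.95) were the highest. Of Stat2, Stat4, Stat5a, Stat5b and Stat6, 0 of 5 were called in any comparison by edgeR or limma with voom. At an unadjusted p there were 2, and DESeq2 called 1, Stat2. Stat4, a factor downstream of interleukin-12 in lymphocytes, was the highest of these at 216 FPKM, between 178 and 262 in every library, above Stat3 (8.91 FPKM) in all of them. Stat2, a factor of interferon signalling, was next at 2.91 FPKM, with a log2 fold change of 1.42 ± 0.27 in 8276OV minus 8276KD (edgeR adjusted p = 0.0936). The other receptors of the family, Il6ra, Il11ra1 and Cntfr, were tested with 0 called by any tool, while Il27ra had 23 reads in all. At an unadjusted p there was 1, Cntfr, with −0.51 ± 0.15 in 8276OV minus 8276KD (edgeR adjusted p = 0.29). It had 0.44 ± 0.15 in 8276KD minus 3NC and −0.33 ± 0.15 in 8276OV minus 5NC. Cntfr, for ciliary neurotrophic factor, had 6.26 FPKM and Il11ra1, for interleukin-11, 3.89. Il6ra, the chain that IL-6 itself needs, had 0.829 FPKM. Of 11 further restraints on JAK and STAT (PIAS proteins, phosphatases, Sh2b3, Usp18 and Cbl), 0 were called by edgeR or limma with voom, 3 had an unadjusted p under 0.05, and DESeq2 called Usp18. The highest were Pias2 (280 FPKM) and Pias4 (67.9). Of 15 other receptors that signal through JAKs, 13 were tested. EdgeR and limma with voom called 0, 5 had an unadjusted p under 0.05, and DESeq2 called 2, Il2rg and Il10ra. Ifngr2 (13.6 FPKM) and Ifnar2 (6.42), interferon receptor chains, were the highest.

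Among 16 genes listed as targets of STAT3, all tested, 2 were called in some comparison: Myc and Junb. In 8276KD minus 3NC 13 of 16 were lower by sign (50.5% of all genes) and 1, Myc, was called (0.178% of all genes). In 5NC minus 3NC 2 were called lower (0.362% called in either direction), and in 8276OV minus 3NC also 2 (0.319%). In 8276OV minus 5NC edgeR called 0 (0% of all genes), with 1 at an unadjusted p under 0.05, as were 1697 of the 16320 genes. In 8276OV minus 8276KD 11 of 16 were higher by sign (51.5% of all genes) and 1, Junb, was called lower (0.0551%). The list's median was −0.30 in 8276KD minus 3NC, beside 0.00 over all genes, 0.03 in 8276OV minus 5NC and 0.27 in 8276OV minus 8276KD, beside 0.01 over all genes. Lists such as this were drawn up with earlier results known. Several of its genes also answer to other pathways.

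Myc, a growth-promoting transcription factor, followed Socs3. It had 4.84, 4.95 and 4.14 CPM in 3NC and 0.314 to 1.09 CPM in the 9 other libraries. Junb, an early-response factor of the AP-1 family, did not. It had 15.2, 10.5 and 15.3 CPM in 3NC and 15.95, 19.0 and 12.8 in 8276KD, against 3.50 to 6.59 in 5NC and 2.73 to 5.79 in 8276OV. Its log2 fold change in 8276KD minus 3NC was 0.22 ± 0.26, beside −2.80 ± 0.32 for Myc. In 8276KD minus 5NC Junb was higher, by 1.83 ± 0.28 (edgeR adjusted p = 0.0298), and in 8276OV minus 8276KD lower (−2.02 ± 0.28, adjusted p = 0.0161).

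A list of 9 immediate early genes, which respond within minutes to stimulation, was set beside these. Fos, Fosb, Jun, Egr1, Egr2, Ier2, Atf3, Dusp1 and Nr4a1 summed to 143 to 153 CPM in 3NC and 152 to 173 in 8276KD, but to 70.2 to 83.5 in 5NC and 56.5 to 74.4 in 8276OV. In 5NC minus 3NC 5 of 9 were called lower (0.362% of all genes called) and in 8276KD minus 5NC 4 of 9 higher (0.049%). The genes were not alike. Egr1 had mean levels of 50.3 CPM in 3NC, 51.6 in 8276KD, 4.60 in 5NC and 4.32 in 8276OV, whereas Nr4a1 had 46.0, 53.9, 44.3 and 38.9 in the same order. Egr2 had 4.92 CPM in 3NC and 2.07 in 8276KD (log2 fold change −1.24 ± 0.30), and Atf3 had 1.98 and 1.04 (−0.92 ± 0.29). The part of such a response in the level of Socs3 was not tested.

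**Figure D4:**
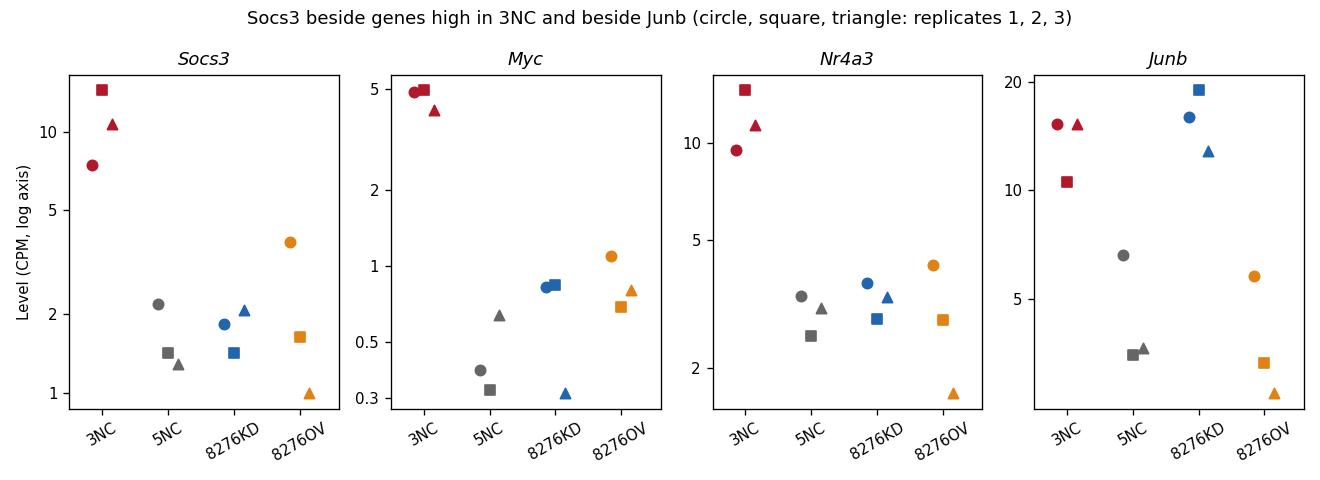
Level of Socs3, Myc, Nr4a3 and Junb in each of 12 libraries, in CPM on log axes, by group. Socs3, Myc and Nr4a3 are high in 3NC alone, whereas Junb is as high in 8276KD (12.8 to 19.0 CPM) as in 3NC (10.5 to 15.3).

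Of 15214 other genes with a mean of at least 1 CPM, the 8 whose log2 CPM followed Socs3 most closely over the 12 libraries were Nr4a3 (Pearson coefficient 0.980), Maff (0.963), Cx3cl1 (0.955), Hmox1 (0.950), Bhlhe40 (0.948), Ier3 (0.945), Ugdh (0.942) and Medag (0.938). All 8 had 3NC above all 9 other libraries, so this likeness rests mainly on the step between 3NC and the rest. Over the 9 libraries outside 3NC the values were 0.83 for the orphan nuclear receptor gene Nr4a3, 0.85 for the small MAF factor gene Maff, 0.79 for the chemokine gene Cx3cl1 and 0.90 for Hmox1, the haem-degrading enzyme. They were 0.56 for Bhlhe40, a transcriptional repressor, 0.63 for Ier3, 0.51 for Ugdh and 0.49 for Medag. Nr4a3 had 11.8 CPM on average in 3NC, 2.99 in 5NC, 3.28 in 8276KD and 2.89 in 8276OV. For Cish, the gene of lowest level, the nearest were Ddit3 (0.892), 3110040M04Rik (0.882) and Zyg11a (0.878), and Ddit3 differed little between groups, with means of 43.2 to 48.7 CPM.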

How the data were processed

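RNA-seq values of 12 testis libraries were read from one deposited table. It holds expected counts, which the authors deposited unnormalized; 88% are whole within a tolerance of 1e-06, and all were rounded before the fits. A second set of deposited columns was taken as FPKM, a unit inferred because value per read times library total is nearly constant across libraries. The build was mm10 per the submitters' processing notes; the aligner, counter, annotation and strandedness: not given in the sources used here. A further 18 per-sample columns, which match none of the 12 libraries, were left out.

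The main test used edgeR 4.0.16 (R 4.3.3): robust quasi-likelihood fits, TMM, 1 fit of all 4 groups, filterByExpr (minimum count 10, minimum total 15), 6 pairwise comparisons, Benjamini-Hochberg adjustment over all 16320 genes and a threshold of 0.05. Fold changes carry a prior count of 0.125; the SE was derived from each fold change and its F statistic. CPM are scaled by library totals. Alternatives were DESeq2 1.42.0, limma 3.58.1 with voom, other scaling and filters, a replicate block, fits of 2 groups, and leaving out each library. Replicates differed beyond sampling noise in every pair (chi-square per gene 2.89 or more).

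Some pathway genes are not reported here. The members and lists were chosen with earlier results of these data known. All members are named; other pathway genes are named if called or, failing that, as the 2 highest by FPKM of their list, with a few more named for their role. Deviations of same-numbered libraries of 8276OV and 5NC correlated at 0.165, 0.149 and 0.109, which met the rule for pairing (each over 0.1), a pairing inferred from the data; other pairs of groups did not meet it.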

Additional observations from a re-analysis of the deposited data

How the results depend on the processing

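No member's fold changed sign after a call. Of 1080 refitted member values 9 lost a call and 1 gained one. A further 2 stayed uncalled but moved beyond their spread. The other 1068 stayed on their side of the threshold. Among these, values not called in the main fit also stayed within their spread, a check not made for called values. The number of members called in 8276OV minus 3NC fell from 1 to 0 in a fit of only those 2 groups (Socs3 adjusted p = 0.177) and in that fit with a replicate block (0.296), a combination added after seeing the data; the cause was not tested. Leaving out single libraries gave 0 to 1 members in 8276KD minus 3NC, 5NC minus 3NC, 8276OV minus 3NC and 8276OV minus 8276KD. For Socs3 the adjusted p was 0.0603 without 3NC replicate 2 and 0.118, 0.145 and 0.0883 without 8276KD replicates 1, 2 and 3 (8276KD minus 3NC), 0.0739 without 5NC replicate 3 (5NC minus 3NC), and 0.0585 without 3NC replicate 3 and 0.1 without 8276OV replicate 2 (8276OV minus 3NC); fewer libraries entered each. The planned replicate block changed no count of members called: 1 in each comparison with 3NC and 0 in the others. Over all genes, DESeq2 called 70 in 8276KD minus 3NC (edgeR 29), 44 in 8276OV minus 5NC (0), 150 in 5NC minus 3NC (59), 105 in 8276OV minus 3NC (52), 36 in 8276KD minus 5NC (8) and 139 in 8276OV minus 8276KD (9). The block raised the last from 9 to 31 and lowered 8276OV minus 3NC from 52 to 29, and with 2 groups and the block 8276OV minus 5NC had 215, 0 of them members. Leaving out single libraries gave 10 to 34, 0 to 5, 16 to 76, 27 to 81, 4 to 11 and 5 to 74 calls in these 6 comparisons, in that order. Depth limits Cish, Osm and Lif most.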
